A study of Homo sapiens with 3 samples.

Results

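The heat shock proteins of the cytosol, their co-chaperones and the chaperonin were followed in melanoma cells by messenger RNA sequencing. The 40 genes were chosen by symbol from the chaperone families, and all 40 were among the 20344 genes listed in the deposited tables. Each table gives FPKM, the reads of a gene scaled to its length and to the library total, so levels of different genes can be compared per length. A gene was kept when it had at least 1 FPKM in at least 1 library, which 39 of the 40 did. The exception was DNAJA4, a J-domain protein, listed at 0.0852 and 0.203 FPKM. Although the group is named for the cytosol, HSPA9, HSPD1, HSPE1 and DNAJA3 encode chaperones of the mitochondrial matrix, and they are described by themselves, with DNAJA3 counted among the J-domain proteins as well.

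The series concerns propranolol, a blocker of beta-adrenergic receptors, in A375 cells, an established human melanoma line with mutant BRAF, and their resistance to the BRAF inhibitor vemurafenib. Of its 3 samples, the library titled A375, Prop and the library titled A375-VR, Prop were used, and the DMSO sample of A375-VR cells, so titled, was not analysed here. They are called the A375 and the A375-VR library. By both titles the cells had received Prop, and the labels do not spell out VR. The extraction protocol, worded alike for every sample, names only A375-VR cells, given either DMSO or propranolol at 20 µM over 24 h, so it conflicts with the title of the A375 library. Cell line, treatment, culture and library preparation therefore cannot be told apart in any difference given here. Each group held 1 library, so there is no replicate error and no p-value. Folds are FPKM ratios of the A375-VR over the A375 library, each with a 95% exact interval that covers counting error only.

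The libraries were scaled to totals of 17811339 (A375) and 16438482 (A375-VR). Of 8 melanocyte and melanoma markers, 3 passed the filter. SOX10, a transcription factor of the neural crest, had 65.3 (A375) and 150 FPKM (A375-VR); MITF, the melanocyte master regulator, had 6.47 and 3.47, and S100B, a calcium-binding protein of the lineage, had 3.72 and 12.6. The pigmentation genes TYR, MLANA, PMEL and DCT were listed between 0 and 0.530 FPKM, so the labelled melanoma origin rests here on SOX10, MITF and S100B and not on pigment genes. The whole marker list summed to 76.2 and 166 FPKM. Of other cell types, 2 of 4 keratinocyte markers, 1 of 5 fibroblast markers, 0 of 3 endothelial markers and 0 of 5 leukocyte markers passed, with sums of 47.8 and 59.5, of 3.41 and 5.24, of 0.174 and 0.235, and of 0.0595 and 1.61 FPKM. Most of the keratinocyte sum came from KRT10, at 44.9 and 56.0 FPKM, with KRT14 at 2.73 and 3.47, and KRT1 was at 0 in both libraries. Among leukocyte markers CD14 had 0.0595 and 0.710 FPKM and LYZ 0 and 0.897, while PTPRC and CD3E were at 0 in both. The part of these markers in the chaperone differences was not tested.

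Heat shock proteins bind unfolded chains and keep them from aggregating. HSP70 proteins take hold of short exposed stretches with the help of J-domain proteins, which bring clients and trigger ATP hydrolysis, and of exchange factors such as the BAG proteins, which release them. HSP90 receives clients from HSP70 through the adaptor STIP1 and matures kinases and steroid receptors, oncogenic BRAF among the kinases. The chaperonin TRiC, a double ring of related CCT subunits, encloses actin, tubulin and other proteins while they fold. The transcription factor HSF1 raises many of these genes under proteotoxic stress by binding heat shock elements, inverted repeats of the unit GAA.

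Most of the chaperone genes were lower in the A375-VR library by a modest amount, and the most abundant ones were among those with the lowest folds. On the log2(FPKM + 1) scale, 33 of 39 differences (A375-VR minus A375) lay below 0, where 39.7% of all 10761 genes past the filter did so. The median over the members was -0.29, against 0.10 over all genes. In bulk RNA, less RNA in each cell and fewer cells with the RNA cannot be told apart. No member was 2-fold apart in either direction, that is, with a difference of at least 1 in size. Among all genes 3.14% were at least 2-fold higher and 0.613% at least 2-fold lower. A lesser threshold of 0.5, chosen after the values were seen, was reached downward by 9 members, with 6.54% of all genes, and upward by 1 member, with 15.1% of all genes. Together the members made up 2.60% of the summed FPKM of the A375 library and 1.92% of that of the A375-VR library.

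**Figure D1:**
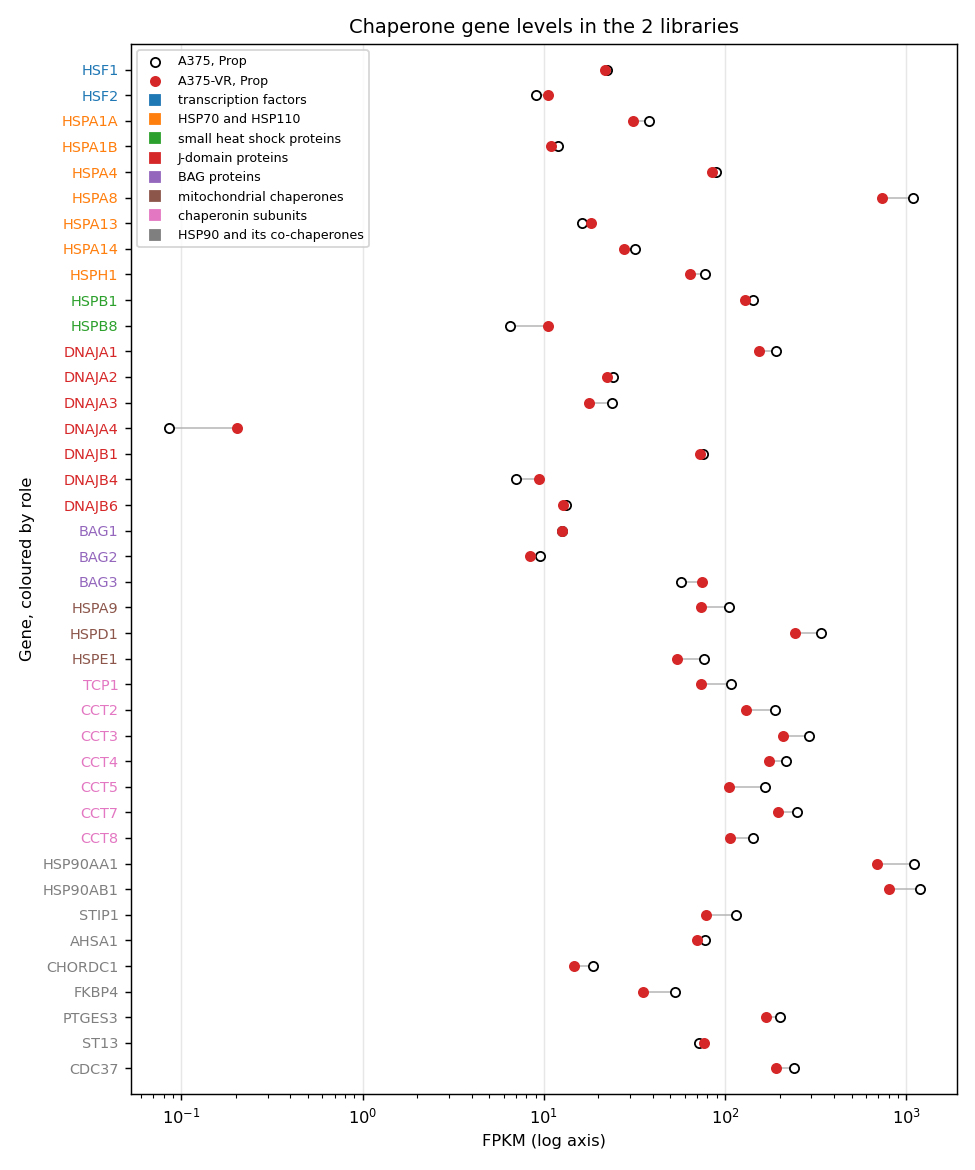
FPKM of each of the 40 genes (x axis, log scale) in the A375 library (open circles) and the A375-VR library (red circles), 1 library each, with gene names coloured by role. HSP90AB1, HSP90AA1 and HSPA8 stand at the right, and all 7 chaperonin subunits have the red circle to the left of the open one.

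The members with the highest levels were HSP90AB1, HSP90AA1 and HSPA8, whose joint share of the member sum was 49.0% in A375 and 44.3% in A375-VR. Abundance has to be kept in view, because abundant genes as a whole were lower in the A375-VR library. Over the 915 genes with a mean of at least 50 FPKM the median difference was -0.13 and 63.6% lay below 0. The 24 members of that level had a median of -0.39 with 22 below 0, and 8 of them reached -0.5 or lower, as did 13.9% of the 915 genes. For the 15 less abundant members past the filter the median was -0.10 with 11 below 0, against 0.12 over all 9846 genes of that level. Across the 39 members the difference went down with the log2 mean level, with a Pearson r of -0.66 and a Spearman rho of -0.67. Over all 10761 genes the same measures were -0.20 and -0.25. These are descriptions across genes that share the same pair of libraries and scaling, and the level enters the difference through its own reads.

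**Figure D2:**
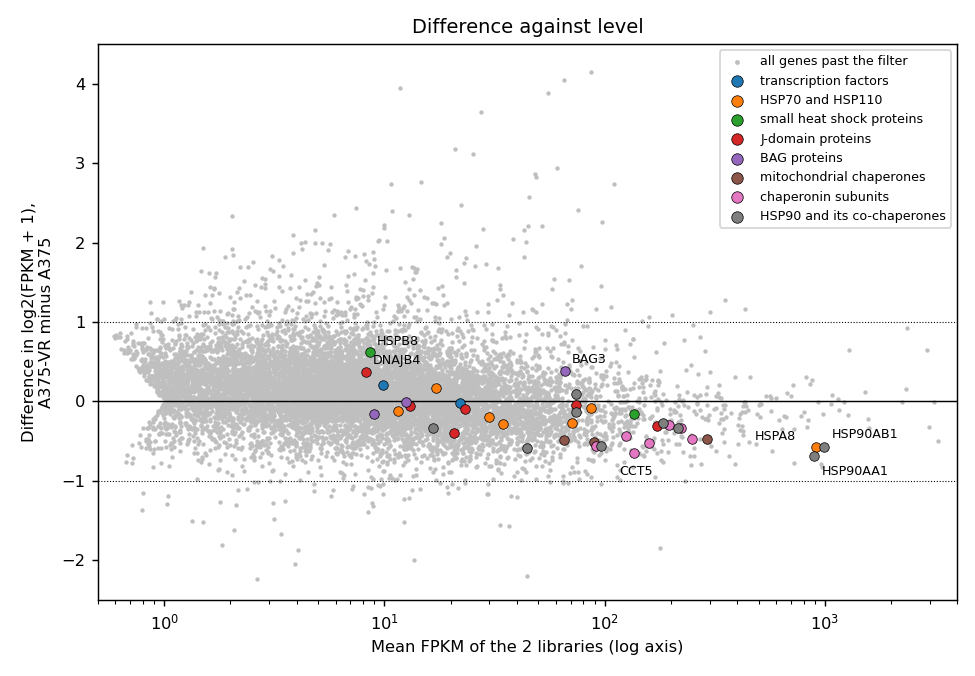
Difference in log2(FPKM + 1), A375-VR minus A375 (y axis), against the mean FPKM of the libraries (x axis, log scale), for all 10761 genes past the filter (grey) and the 39 chaperone genes (coloured by role). Dotted lines mark a 2-fold difference; every chaperone gene lies between them, and the abundant ones lie below 0 apart from BAG3 and ST13.

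The heat shock factors themselves were close to level. HSF1, the main activator of the heat shock response, had 22.2 (A375) and 21.8 FPKM (A375-VR). Its fold was 0.983 (0.881 to 1.10), an interval that held 1 and can be too wide. Its factor is regulated mostly after translation, so its RNA is not a measure of its activity. HSF2, a related factor with roles in development and stress, had 9.08 and 10.6 FPKM, with a fold of 1.17 (1.02 to 1.33). Neither factor lay far from the median of all genes.

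To show what the genes share in sequence, promoter windows of 300 bases, 250 before and 50 after each annotated start, were taken from RefSeq on GRCh38.p14. A window was found for 36 of the 40 genes by symbol, with none for HSF1, HSPA14, ST13 and FKBP4. The heat shock element was searched as 3 alternating units, that is GAA, 2 bases of any kind, TTC, 2 bases of any kind and GAA, on both strands (TTC, GAA and TTC with the same spacing), and matches were allowed to overlap. It occurred in 7 of the 36 members (19.4%), HSPA8, HSP90AA1, HSP90AB1, HSPD1, DNAJA1, DNAJB6 and CHORDC1. Elements with an inexact unit or outside the window would be missed, so a gene without a match may still have one. Of all 27305 genes with a window, 166 (0.608%) had it. The windows of the 5 with the lowest folds follow, 5′ to 3′ on the strand of the gene, with the matches in capitals.
HSPA8, chr11:123062087-123062386, minus strand: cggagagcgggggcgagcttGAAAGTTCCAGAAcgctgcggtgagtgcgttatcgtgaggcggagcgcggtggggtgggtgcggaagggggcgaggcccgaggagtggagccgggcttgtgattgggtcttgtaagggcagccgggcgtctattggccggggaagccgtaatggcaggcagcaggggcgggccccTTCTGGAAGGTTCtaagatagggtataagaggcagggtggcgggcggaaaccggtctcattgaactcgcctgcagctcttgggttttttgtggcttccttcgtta
HSP90AA1, chr14:102086995-102087294, minus strand: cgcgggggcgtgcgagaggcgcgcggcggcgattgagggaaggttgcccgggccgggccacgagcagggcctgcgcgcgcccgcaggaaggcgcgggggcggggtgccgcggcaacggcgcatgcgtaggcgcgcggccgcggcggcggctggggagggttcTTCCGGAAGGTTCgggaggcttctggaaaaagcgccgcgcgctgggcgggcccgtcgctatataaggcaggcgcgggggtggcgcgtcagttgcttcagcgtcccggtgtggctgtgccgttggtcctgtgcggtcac
HSP90AB1, chr6:44247693-44247992, plus strand: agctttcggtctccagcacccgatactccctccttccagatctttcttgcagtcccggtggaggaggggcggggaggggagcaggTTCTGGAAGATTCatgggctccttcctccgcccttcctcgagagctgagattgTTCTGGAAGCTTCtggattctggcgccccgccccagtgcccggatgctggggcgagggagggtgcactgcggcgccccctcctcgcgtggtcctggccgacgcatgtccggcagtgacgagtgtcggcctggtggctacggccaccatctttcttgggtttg
HSPD1, chr2:197499791-197500090, minus strand: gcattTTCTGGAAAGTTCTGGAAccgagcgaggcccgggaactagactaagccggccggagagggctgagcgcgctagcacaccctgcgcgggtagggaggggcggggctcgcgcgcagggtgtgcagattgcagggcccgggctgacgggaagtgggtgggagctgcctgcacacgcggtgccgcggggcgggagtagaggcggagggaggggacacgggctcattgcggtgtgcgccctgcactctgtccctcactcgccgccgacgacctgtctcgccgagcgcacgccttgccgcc
CHORDC1, chr11:90223000-90223299, minus strand: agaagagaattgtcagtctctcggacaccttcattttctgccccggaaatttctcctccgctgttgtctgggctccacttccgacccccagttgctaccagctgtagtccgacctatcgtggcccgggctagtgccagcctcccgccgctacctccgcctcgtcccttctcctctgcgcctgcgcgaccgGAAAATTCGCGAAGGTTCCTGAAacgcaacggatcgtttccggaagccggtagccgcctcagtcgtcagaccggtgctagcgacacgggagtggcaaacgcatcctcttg

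HSPA8 carried 2 matches, the first bases of which lay at -230 and -55 from the start. HSP90AA1 had 1 match from -88 and HSP90AB1 had 2, from -165 and -112, each in 1 of several annotated windows of the gene. In CHORDC1, 3 overlapping matches from -60, -55 and -50 form a run of alternating units, and in HSPD1 2 overlapping matches began at -245 and -240. The matches of the other two are given with up to 10 bases on each side. The one in DNAJA1 lies just after the start, from base 4, and that in DNAJB6 begins at -131.
DNAJA1, chr9:33025266-33025298, plus strand: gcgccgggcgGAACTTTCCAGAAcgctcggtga
DNAJB6, chr7:157336863-157336895, plus strand: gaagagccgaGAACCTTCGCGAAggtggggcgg

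All 7 members with the element had a difference below 0, with a median of -0.48 and a range from -0.68 in HSP90AA1 to -0.06 in DNAJB6. The 28 members past the filter with a window and no match had a median of -0.27, with 23 below 0. The 7 with the element include HSP90AB1, HSP90AA1 and HSPA8, the members with the highest levels. Members with a mean of at least 50 FPKM had a median of -0.39, and those past the filter under 50 FPKM had -0.10. Element and level were not told apart here. Outside the chaperone genes, those with and without the element had similar medians. The 32 other genes past the filter that had it showed a median of 0.10, with 13 below 0 (40.6%), and the 8598 other genes with a window and no match had a median of 0.09, with 40.1% below 0. A shorter form of 2 units, GAA and TTC in either order with 2 bases between, which every match of 3 units contains, was in 20 of the 36 members (55.6%) and in 16.2% of all genes. Of the members past the filter, the 19 with a 2-unit match had a median of -0.31, with 17 below 0. The 16 with a window and no such match had a median of -0.27, with 13 below 0. These medians lay closer together than those for the 3-unit form, and HSPB8, the highest member, was among the 19. All the matches are letters in a window and not shown to be bound, and genes without a match are not shown to lack an element.

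For the other motifs the background depends on the genes it is drawn from. The 3-unit element was in 7 of the 35 members past the filter with a window (20.0%) and in 0.371% of 8630 other genes past the filter. The GC box GGGCGG, searched on both strands, was in 31 of the 35 (88.6%) against 78.4% of those genes; over all genes with a window it was in 88.9% of members against 48.3%. CCAAT, the site of the factor NF-Y, was in 12 of the 35 (34.3%) against 44.0%, and TATAAA in 4 (11.4%) against 7.57%. Over all genes with a window these shares were 33.3% against 39.7% for CCAAT, and 13.9% against 14.0% for TATAAA. BAG3, which was higher in the A375-VR library, is shown as an example of a member without a 3-unit match. It is not typical of them, since 23 of the 28 such members past the filter lay below 0. The BAG3 window held no match to the 3-unit element and 6 GC boxes, here in capitals.
BAG3, chr10:119651130-119651429, plus strand: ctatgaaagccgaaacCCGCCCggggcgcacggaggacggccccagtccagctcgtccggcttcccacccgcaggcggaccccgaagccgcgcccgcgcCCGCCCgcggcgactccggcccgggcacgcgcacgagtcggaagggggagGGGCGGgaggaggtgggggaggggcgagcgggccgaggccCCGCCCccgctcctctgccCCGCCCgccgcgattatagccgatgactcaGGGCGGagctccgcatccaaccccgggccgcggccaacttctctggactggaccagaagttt

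In the HSP70 family the constitutive form had the lowest fold. HSPA8, the constitutive cytosolic HSP70 known as HSC70 (Entrez 3312, GRCh37 chromosome 11 at 122928197 to 122933938, minus strand), had 1093 (A375) and 732 FPKM (A375-VR). Its fold was 0.669 (0.663 to 0.676), and it moved from rank 19 to rank 28 among all genes. HSPA1A and HSPA1B, the stress-inducible HSP70 genes, lie side by side on chromosome 6 (GRCh37, 31783320 to 31785723 and 31795515 to 31798031) and are nearly identical, so a counting tool can split or discard their reads and both values are uncertain. HSPA1A had 37.9 and 30.9 FPKM, with a fold of 0.815 (0.757 to 0.877), and HSPA1B had 12.0 and 11.0, with a fold of 0.915 (0.806 to 1.04). Their sum was 4.57% of the HSPA8 level in A375 and 5.72% of it in A375-VR. By these uncertain values the inducible pair was a small fraction of the constitutive form in both, and it was nearer to level between the libraries. Whether shared reads of the pair were discarded is not known, so the fraction can be too low.

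HSP110 proteins act as exchange factors for HSP70. HSPH1 had 77.6 and 64.3 FPKM, with a fold of 0.829 (0.806 to 0.852), while HSPA4 was closer to level at 89.4 and 84.6, with a fold of 0.946 (0.916 to 0.977). HSPA14, an HSP70 tied to the ribosome, had 31.8 and 27.6 FPKM, with a fold of 0.869 (0.804 to 0.938). HSPA13, an HSP70 relative of microsomes, was the only one of the 7 in this group above 0, with 16.2 and 18.3 FPKM and a fold of 1.13 (1.05 to 1.23). Of these 7 genes 6 lay below 0, and the group median was -0.20.

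The 2 small heat shock proteins, which hold unfolded chains without ATP, went apart. HSPB1, or HSP27, had 143 (A375) and 128 FPKM (A375-VR), with a fold of 0.894 (0.854 to 0.935). HSPB8 had 6.54 and 10.6 FPKM, with a fold of 1.62 (1.41 to 1.87), and its difference of 0.62 was the highest of all members. BAG3, the co-chaperone that pairs HSPB8 with HSP70 and delivers clients to autophagy, was likewise higher, at 57.0 and 74.9 FPKM with a fold of 1.31 (1.25 to 1.38). The other BAG proteins, exchange factors for HSP70, were not: BAG1 had 12.6 and 12.5 FPKM, with a fold of 0.997 (0.928 to 1.07), and BAG2 had 9.52 and 8.41, with a fold of 0.884 (0.809 to 0.965). HSPB8 and BAG3 thus lay above the median of all genes while HSPB1, BAG1 and BAG2 lay below it.

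J-domain proteins had a median of -0.08 over the 6 past the filter, of which 5 were below 0, the mitochondrial DNAJA3 included. DNAJA1, a main cytosolic partner of HSPA8, had 190 and 154 FPKM, with a fold of 0.808 (0.714 to 0.913), and DNAJA2 had 24.1 and 22.4, with a fold of 0.932 (0.876 to 0.992). DNAJB1, or HSP40, the stress-inducible partner of HSP70, had 75.5 and 73.0 FPKM, with a fold of 0.967 (0.913 to 1.02). DNAJB6, a suppressor of aggregation, had 13.3 and 12.8 FPKM, with a fold of 0.959 (0.914 to 1.01). The intervals of DNAJB1 and DNAJB6 held 1, and that of DNAJB1 can be too wide. DNAJB4 was the exception, at 7.02 and 9.41 FPKM with a fold of 1.34 (1.19 to 1.52); its exons overlap those of a neighbour on the same strand, so its reads are uncertain.

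**Figure D3:**
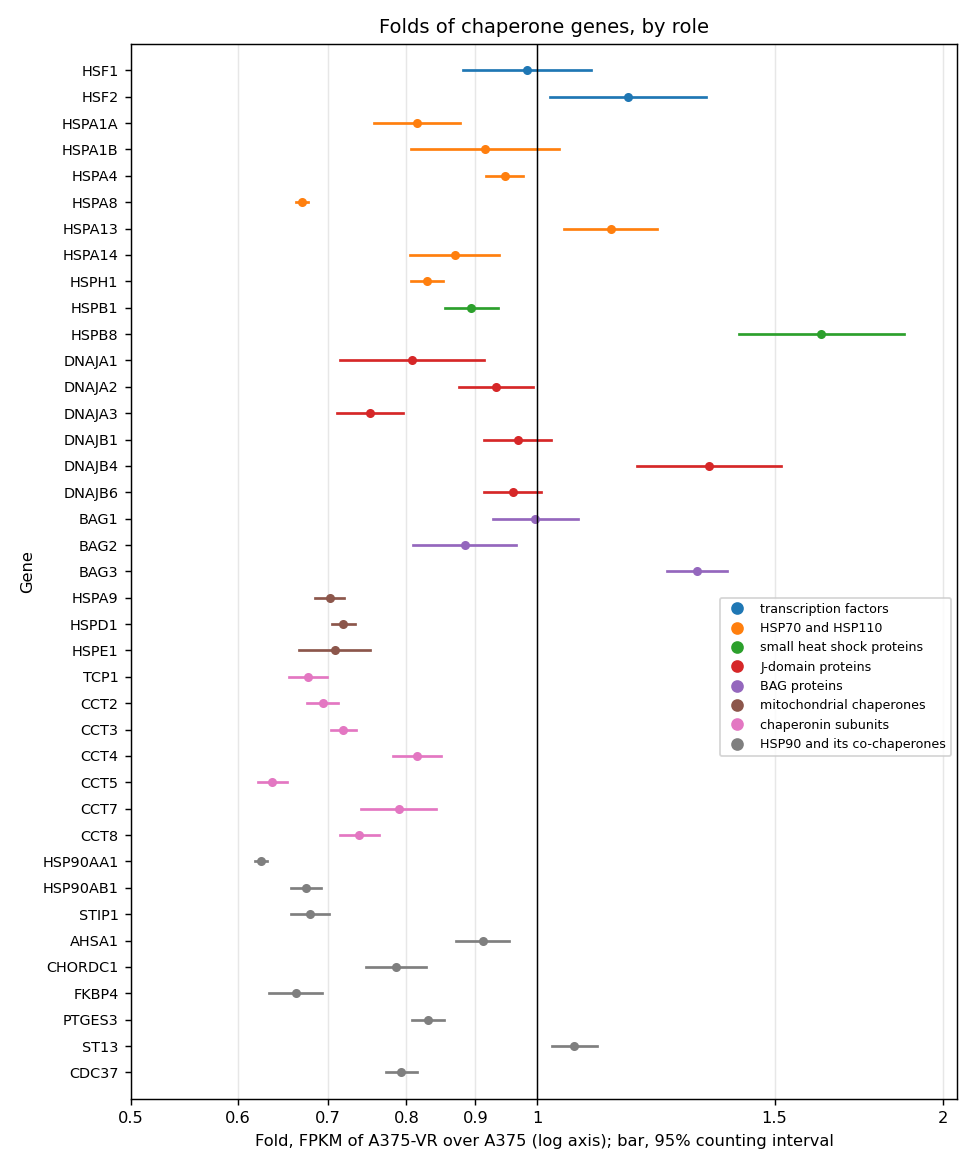
Fold of FPKM, A375-VR over A375 (x axis, log scale), for the 39 genes past the filter, with 95% counting intervals as bars and colours by role. Points of the chaperonin, the mitochondrial chaperones, HSP90AA1 and HSP90AB1 lie left of 1, and HSPB8, DNAJB4 and BAG3 lie farthest right. HSP90 shares a colour with its co-chaperones, of which ST13 lies right of 1, and DNAJA3 has the J-domain colour.

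All 4 mitochondrial chaperones were lower in the A375-VR library and by similar amounts. HSPA9, or mortalin, the HSP70 of the matrix that also draws proteins in through the inner membrane, had 105 and 73.5 FPKM, with a fold of 0.702 (0.684 to 0.720). HSPD1, the HSP60 barrel, had 338 and 243 FPKM, with a fold of 0.718 (0.704 to 0.732). HSPE1, the HSP10 lid of that barrel, had 76.9 and 54.4 FPKM, with a fold of 0.708 (0.666 to 0.752). The genes of barrel and lid stand head to head on chromosome 2, and the ratio of their FPKM was 4.39 in A375 and 4.46 in A375-VR, so the pair kept its proportion. Exons of these genes overlap on opposite strands and HSPE1 also shares exons with a read-through gene, which leaves some of their reads uncertain. DNAJA3, the J-domain partner of HSPA9, had 23.7 and 17.8 FPKM, with a fold of 0.752 (0.711 to 0.796).

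Every chaperonin subunit among the members was lower in the A375-VR library, 7 of 7, with a median difference of -0.48. CCT5 had 166 (A375) and 106 FPKM (A375-VR), with a fold of 0.636 (0.621 to 0.652), the lowest of the subunits. TCP1, the alpha subunit, had 108 and 73.4 FPKM, with a fold of 0.676 (0.655 to 0.699), and CCT2 had 188 and 130, with a fold of 0.694 (0.676 to 0.712). CCT3, the most abundant, had 292 and 210 FPKM, with a fold of 0.718 (0.703 to 0.734).

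CCT8 had 144 and 106 FPKM, with a fold of 0.738 (0.714 to 0.763). CCT7 had 249 and 197 FPKM, with a fold of 0.790 (0.741 to 0.842), and CCT4 had 216 and 176, with a fold of 0.814 (0.782 to 0.848). The intervals of CCT5 and CCT4 do not overlap, so the subunits did not share a single fold within counting error. Although each ring holds 1 copy of every subunit, the RNA of the most and the least abundant of the 7 differed by a ratio of 2.69 in A375 and 2.86 in A375-VR. The remaining subunit, CCT6A, is no member and was taken from a list of other chaperones; it had 259 and 189 FPKM, with a fold of 0.730 (0.713 to 0.747), within the range of the 7.

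HSP90 showed the lowest fold of all members. HSP90AA1, the stress-responsive alpha form (Entrez 3320, GRCh37 chromosome 14 at 102547079 to 102606036, minus strand), had 1102 (A375) and 688 FPKM (A375-VR), with a fold of 0.624 (0.618 to 0.630). HSP90AB1, the constitutive beta form (Entrez 3326, GRCh37 chromosome 6 at 44213903 to 44221625), had 1189 and 802 FPKM, with a fold of 0.674 (0.657 to 0.691). The ratio of alpha to beta went from 0.927 to 0.858. Their intervals do not overlap, so the alpha form was lower by more than the beta form beyond counting error. Pseudogenes can take reads from such genes. Counting all types, the annotation names 26 for HSPE1, 18 for HSPD1, 17 each for HSPA8 and ST13 and 8 for DNAJB6. It names 6 each for HSP90AB1 and DNAJA1, and 5 or fewer for every other member.

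The co-chaperones of HSP90 were graded. STIP1, or HOP, which links HSP70 to HSP90, had 115 and 78.0 FPKM, with a fold of 0.678 (0.656 to 0.700). FKBP4, an immunophilin that joins HSP90 in steroid receptor complexes, had 53.2 and 35.2 FPKM, with a fold of 0.662 (0.633 to 0.693). These had folds close to those of HSP90 itself.

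CDC37, which brings kinases to HSP90, had 241 and 191 FPKM, with a fold of 0.793 (0.772 to 0.814). CHORDC1, a co-chaperone that binds the HSP90 ATPase domain, had 18.7 and 14.7 FPKM, with a fold of 0.786 (0.747 to 0.827). PTGES3, or p23, which stabilises the closed form of HSP90, had 202 and 167 FPKM, with a fold of 0.830 (0.808 to 0.853). AHSA1, the activator of the HSP90 ATPase, was nearer to level at 77.3 and 70.4 FPKM, with a fold of 0.911 (0.870 to 0.954). ST13, or HIP, which steadies HSP70 with its client and has many pseudogenes, was above 1 at 72.0 and 76.7 FPKM, with a fold of 1.07 (1.03 to 1.11), although centring on the median of all genes turned its difference from 0.09 to -0.02. Of the 9 genes of HSP90 and its co-chaperones, 8 lay below 0, with a median of -0.33.

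In all, the interval of the fold lay below 1 for 28 of the 39 members, above 1 for 6, and held 1 for 5. Of the 10759 genes past the filter with reads in both libraries, it lay below 1 for 26.4% and above 1 for 43.6%, and deeper genes have narrower intervals. Members above 1 were HSPB8, DNAJB4, BAG3, HSF2, HSPA13 and ST13. The 5 that held 1 were HSF1, HSPA1B, DNAJB1, DNAJB6 and BAG1, and the intervals of HSF1 and DNAJB1 can be too wide. For HSF1, HSPA14, HSP90AA1, DNAJB1, BAG2, TCP1 and AHSA1, exons overlap a coding gene on the opposite strand, and whether counting used the strand is not known, so part of their reads may belong to the neighbour. HSPA14 also overlaps a coding gene on its own strand. Since counting error is only 1 part of the error of a library, an interval that leaves out 1 says that the libraries differed, not the cells or treatments.

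**Figure D4:**
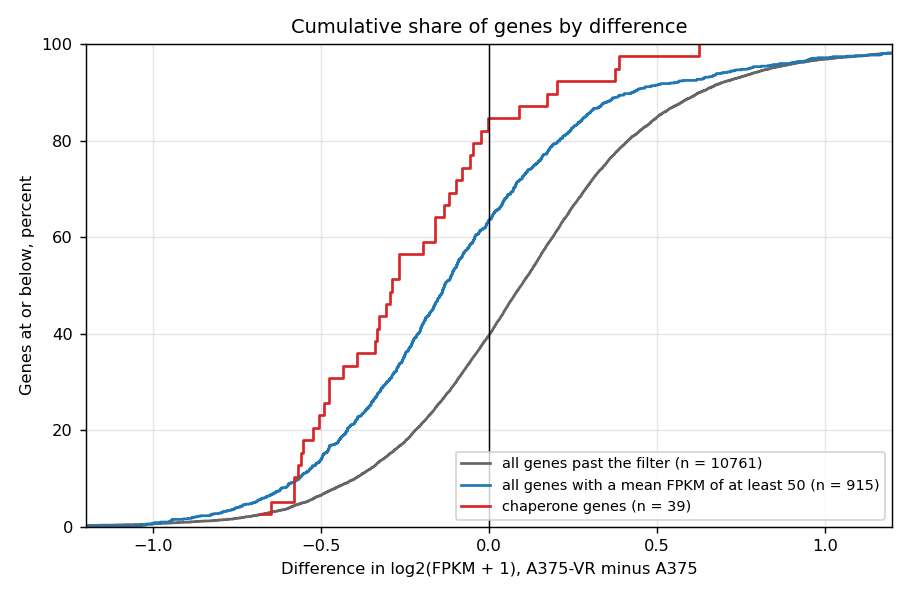
Percent of genes (y axis) at or below each difference in log2(FPKM + 1), A375-VR minus A375 (x axis), for all 10761 genes past the filter, the 915 genes with a mean of at least 50 FPKM and the 39 chaperone genes. At 0 the lines stand at 39.7%, 63.6% and 84.6%.

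Other chaperones and co-chaperones, a list of 62 genes outside the members, lay on both sides of 0, with more below. Of 49 past the filter 20 lay above 0 and 29 below (59.2%, against 39.7% of all genes past the filter). The median was -0.12, against 0.10 over all genes, and none was 2-fold apart. The median was -0.02 without the filter, -0.19 after centring on the median log2 ratio and -0.20 with the trimmed mean. By the difference in log2(FPKM + 1), lowest was TRAP1, the mitochondrial HSP90, with 27.0 and 17.4 FPKM, a difference of -0.61 and a fold of 0.642 (0.602 to 0.685). It was followed by PPID, an HSP90 cyclophilin, at -0.55 with a fold of 0.670 (0.607 to 0.739), by DNAJC2, a ribosome-bound J-domain protein, at -0.47 with 0.711 (0.669 to 0.756), and by CCT6A at -0.45. By the same measure highest were HSF4, a heat shock factor of the lens, with 0.765 and 1.95 FPKM and a fold of 2.54 (1.79 to 3.67) that the pseudocount keeps under 2-fold, DNAJB2, a J-domain protein of neurons, at a fold of 1.66 (1.46 to 1.88), and DNAJC6, the auxilin that uncoats clathrin vesicles, at 1.65 (1.44 to 1.88).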

How the data were processed

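Expression was compared between 2 libraries, titled A375, Prop and A375-VR, Prop. Per the series design text, libraries came from a stranded TruSeq mRNA kit, were read as 150 bp pairs on a HiSeq 2000 and were aligned to GRCh37 with TopHat 1.3.3; for the counting tool, annotation and use of strand the sources used here give nothing. FPKM for 20344 genes is the deposited unit. From them the difference of log2(FPKM + 1) was taken, with the FPKM filter at 1 and a difference of 1 called 2-fold. Low genes are understated on this scale.

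Genes with equal reads fix the ratio of the library totals, and the common divisor of length times total over low genes gives the totals. Reads are the smallest whole numbers that give both FPKM values with a whole gene length (relative tolerance 1e-09, met by all 40 members). True reads can be multiples of them, so intervals (exact Clopper-Pearson, 95%) can be too wide. Such genes include HSP90AB1, DNAJA1 and CCT7, whose recovered lengths are 745, 182 and 513 bp. HSF1 and DNAJB1 were recovered at 1769 and 1836 bp, against annotated exons of 5305 and 8188 bp. Their intervals can be too wide as well. The recovery of reads and totals, the 2-fold call and the fold interval were first tested on simulated data. A divisor of the true reads counted as recovered, and the interval was tested with the simulated reads and not with recovered ones. The other steps were not tested, and no count model was fitted.

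The members, lists and thresholds were chosen with earlier results of these data known. Named genes are all members, the 4 genes farthest in each direction of the other chaperone list, and melanoma markers; some genes that the rule takes are left unreported. The 6 alternatives were a pseudocount of 0.1, a filter at FPKM 5, no filter, and 3 scalings. Gene positions are from GENCODE release 44 on GRCh37 and promoter windows from RefSeq on GRCh38.p14, with nothing converted between them. Protein sequences were not used here. Python 3.11.15, numpy 2.4.6, pandas 2.3.3, scipy 1.17.1 and matplotlib 3.10.9 were used.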

Additional observations from a re-analysis of the deposited data

How the results depend on the processing

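The count of members 2-fold apart stayed at 0 in both directions under all 6 alternatives. Between 5 and 7 members lay above 0. The share of all genes below 0, 39.7% in the main setting, varied with the setting. It was 49.9954% after centring on the median log2 ratio and 50.4% with the trimmed mean, each with 34 of 39 members below 0. Rescaling to a common sum gave 37.7% with 32 members below 0. A filter at FPKM 5 gave 44.3%, a pseudocount of 0.1 39.7% and no filter 29.4%, each with 33 members below 0. Centring on the median log2 ratio and the trimmed mean of log ratios lowered the VR values by a common factor, so by construction the medians were lower: -0.40 and -0.40 for the members, -0.59 and -0.59 for the chaperonin, -0.18 and -0.19 for J-domain proteins, -0.31 and -0.31 for HSP70 and HSP110, and -0.45 and -0.45 for HSP90 with its co-chaperones. The same scalings turned ST13 below 0, and rescaling to a common sum turned BAG1 above 0; no other member changed sign under any of the 6 alternatives. Centring also moved the 2-fold split of all genes from 338 higher and 66 lower (83.7% higher) to 273 and 101 (73.0%), the trimmed mean gave 272 and 101 (72.9%), rescaling to a common sum 624 and 104, and a pseudocount of 0.1 689 and 140. No paired analysis was possible because each group had 1 library. The intervals of HSF1, HSPA1B, DNAJB1, DNAJB6 and BAG1 held 1, so by these intervals the direction of their differences was not settled. Those of HSF1 and DNAJB1 can be too wide, since their true reads can be multiples of the recovered ones.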
